A study of Mus musculus with 8 samples.

Results

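The nuclear genes for the subunits of the mitochondrial respiratory chain and ATP synthase were followed across 4 groups of CD4+ T cells from mouse spleen. Members were the genes of the deposited table whose symbols begin with Nduf and a subunit letter and number, Uqcr, Cox4 to Cox8 or Atp5, together with Sdha, Sdhb, Sdhc and Sdhd. The rule used symbols only and found 84 of the 24016 genes in the table. By the complex they belong to, 35 were in complex I, 4 in complex II, 8 in complex III, 20 in complex IV and 17 in complex V. Ndufa4 and Ndufa4l2 were placed in complex IV, where the Ndufa4 protein is known to reside, and Cox7a2l, a supercomplex assembly factor, was kept there because of its symbol. Atp5s and Atp5sl also match by symbol and are not subunits of the ATP synthase enzyme itself.

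The respiratory chain moves electrons from NADH and succinate to oxygen through complexes I to IV and pumps protons across the inner mitochondrial membrane, and complex V, the ATP synthase, uses the resulting gradient to make ATP. Most subunits are encoded in the nucleus, with a small core encoded in mitochondrial DNA, which was not analysed here. Regulatory T cells, usually called Treg cells, are known to rely on oxidative metabolism more than activated conventional T cells do.

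Gene expression was measured by RNA sequencing of polyadenylated RNA, in 2 libraries per group labelled A and B. All mice carried FoxP3GFP, a green fluorescent reporter of the Treg-defining transcription factor Foxp3, and reporter-positive cells are called Treg and reporter-negative cells non-Treg below. Monoclonal cells came from strain NOD.TCRab.FoxP3GFP.Rag-/-, in which every T cell is labelled as having the same receptor (the labels write NT, and the series title names a nuclear transfer model), and polyclonal cells came from NOD.FoxP3GFP mice, labelled WT. Strain, Rag genotype and receptor therefore change together and cannot be told apart. The labels do not say whether the libraries of a group came from different animals, so p-values measure only the spread between these libraries, which may be technical. Values are CPM, the reads of a gene scaled to a library total of 1000000, from 14076330 to 19722321 reads per library.

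Foxp3 was at 2709 and 2667 CPM in monoclonal Treg cells, 405 and 319 in monoclonal non-Treg cells, 2349 and 2281 in polyclonal Treg cells and 81.9 and 84.2 in polyclonal non-Treg cells, so both sorts follow their labels, with more Foxp3 in non-Treg libraries of monoclonal than of polyclonal mice. Transcripts of other cells were present in the monoclonal libraries. The summed level of 10 dendritic cell genes was 1905 and 2132 CPM in monoclonal non-Treg cells and 565 and 487 in monoclonal Treg cells, against 46.7 to 72.9 in the 4 polyclonal libraries, where Batf3 and Clec9a were at 0 in both Treg libraries. All 10 had reads in both monoclonal groups. The sum of 7 neutrophil genes was 1207 and 220.2 CPM in monoclonal Treg cells, 390.1 and 59.3 in monoclonal non-Treg cells and 14.6 to 48.2 in the polyclonal libraries, higher in library A than in library B of every group. The part of these transcripts in the subunit values was not tested. In bulk samples, fewer cells of a type and less RNA per cell cannot be told apart.

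Many subunit genes have processed pseudogenes, which limits how far their read counts can be read. Of the 84 members, 35 shared at least 1 exact 50-base word, the length of a read, with another gene on either strand in the GENCODE vM21 transcripts (GRCm38), and 49 shared none. The 6 members below had more than 30% of their words in other genes and also mean levels under 6 CPM per kilobase of transcript. Each is shown by 50 coding bases that 1 or more pseudogenes carry without a mismatch, because a read from such a stretch has no unique origin. All letters are lower case, since the whole stretch is shared.
Ndufs5: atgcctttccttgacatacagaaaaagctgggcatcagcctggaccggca
Ndufb4: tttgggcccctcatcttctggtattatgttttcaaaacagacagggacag
Cox7c: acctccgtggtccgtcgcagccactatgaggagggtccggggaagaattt
Atp5g1: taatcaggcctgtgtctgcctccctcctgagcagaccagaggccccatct
Atp5g2: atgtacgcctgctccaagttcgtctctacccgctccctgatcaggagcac
Atp5l: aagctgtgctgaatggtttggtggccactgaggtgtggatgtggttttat

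The Ndufs5 stretch spans coding bases 1 to 50 and was found in 1 pseudogene, the Ndufb4 stretch spans bases 283 to 332 and was found in 3, and the Atp5l stretch spans bases 215 to 264 and was found in 9. Those of Cox7c, Atp5g1 and Atp5g2 were each found in 2 pseudogenes. Over the whole transcript, 41.2% of words were shared for Ndufs5, 37.0% for Ndufb4, 53.0% for Cox7c, 66% for Atp5g1, 87.4% for Atp5g2 and 68.5% for Atp5l. Among the 14 members under 6 CPM per kilobase, these were the 6 with shared words, and the other 8 (Cox4i2, Cox6a2, Cox6b2, Cox7a1, Cox7b2, Cox8b, Cox8c and Ndufa4l2) shared none. Of the 70 members above that level, 4 shared more than 30% (Ndufa12, Ndufs3, Uqcrb and Atp5h) and 41 shared none. The sources used here do not give how reads with several matches were treated, and the cause of the 6 low levels was not tested.

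**Figure D1:**
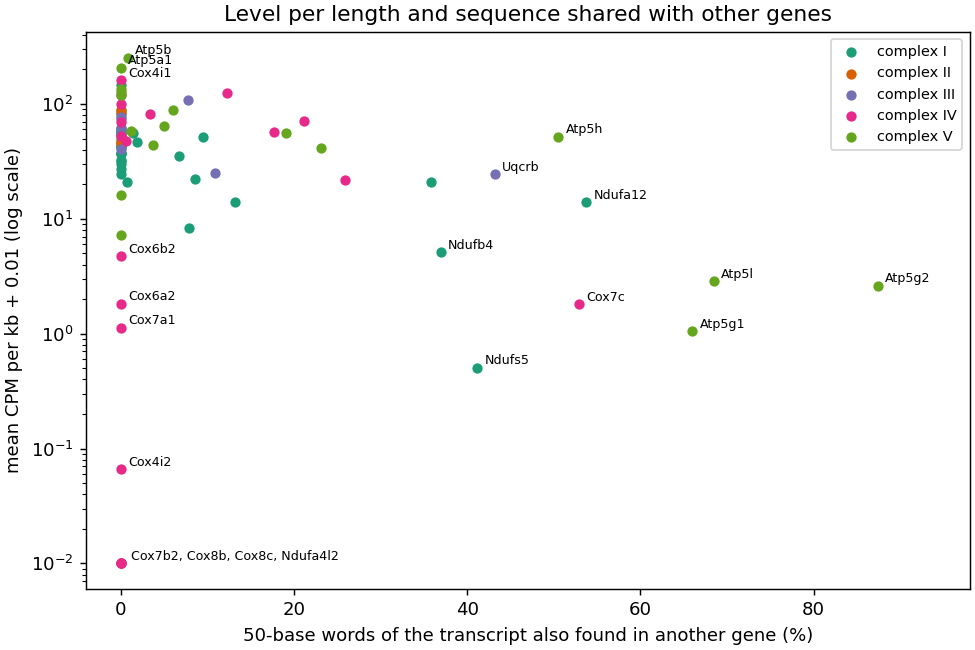
Mean CPM per kilobase over the 8 libraries (vertical, log scale, with 0.01 added so that genes without reads can be drawn) against the percentage of 50-base words of the transcript that also occur in another gene (horizontal), with 1 point per member coloured by complex. Among the 14 points under 6 CPM per kilobase, 6 lie at 37.0% to 87.4% shared words and 8 at 0.

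The 3 genes for the c subunit, which forms the proton-driven ring of the ATP synthase, differed widely in counted reads. They are known to encode the same mature protein behind different import sequences. The last 63 coding bases of the deposited transcripts' GENCODE matches are given here because they show where the 3 transcripts differ. Capitals mark the bases of Atp5g1 and Atp5g2 that differ from Atp5g3, 12 and 17 in number, and in Atp5g3 every position where either differs.
Atp5g1: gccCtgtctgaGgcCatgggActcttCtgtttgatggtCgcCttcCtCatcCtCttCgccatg
Atp5g2: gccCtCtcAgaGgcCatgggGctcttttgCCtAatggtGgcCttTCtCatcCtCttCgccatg
Atp5g3: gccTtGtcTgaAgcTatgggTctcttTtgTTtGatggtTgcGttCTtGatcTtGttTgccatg

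Atp5g3 shared no 50-base word with another gene and stood at 83.6 and 76.6 CPM in monoclonal Treg cells, 95.1 and 71.7 in monoclonal non-Treg cells, 72.5 and 126 in polyclonal Treg cells and 92.2 and 102 in polyclonal non-Treg cells. Atp5g1 was at 1.38 and 0, 0.555 and 0.967, 0 and 1.32, and 0.949 and 1.48 CPM in the same order. Atp5g2 was at 4.60 and 1.24, 1.94 and 1.61, 2.13 and 0.710, and 0.506 and 0.516 CPM. Per kilobase the means were 134 CPM for Atp5g3, 2.59 for Atp5g2 and 1.04 for Atp5g1, so Atp5g3 held nearly all counted c subunit reads in every library. None of the 3 passed the test in any comparison.

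Before the groups are compared, the polyclonal Treg libraries need a description, because the 2 differed from each other in most members. The summed level of the 84 members was 3576 CPM in library A and 5384 in library B of that group, the lowest and the highest of the 8 libraries. The other 6 libraries ran from 4001 to 4594 CPM. On the log2(CPM + 1) scale, library B was above library A in 71 of the 77 members tested, with a median difference of 0.56, against a median of 0.03 over all 12881 genes tested. The corresponding medians of the members were -0.13 in monoclonal Treg cells, -0.18 in monoclonal non-Treg cells and 0.02 in polyclonal non-Treg cells.

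The difference between the polyclonal Treg libraries held in each complex, with medians of 0.51 in complex I, 0.29 in complex II, 0.76 in complex III, 0.59 in complex IV and 0.64 in complex V. The widest gaps were in Ndufa7 (1.35), Cox4i1 (1.31), Atp5k (1.29), Ndufa8 (1.28) and Atp5e (1.27), and the 6 members that were lower in library B were Atp5g2, Uqcrb, Cox7c, Atp5l, Atp5s and Ndufs1. Transcript length moved with the difference. Other genes under 1000 bases had a median of 0.32, genes of 1000 to 3000 bases 0.15 and genes over 3000 bases -0.10. Members under 1000 bases had a median of 0.61, and the longer members 0.40. Proteins of the mitochondrial ribosome had a median of 0.50 and those of the cytosolic ribosome 0.49. The part of transcript length in the members' difference was not tested.

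**Figure D2:**
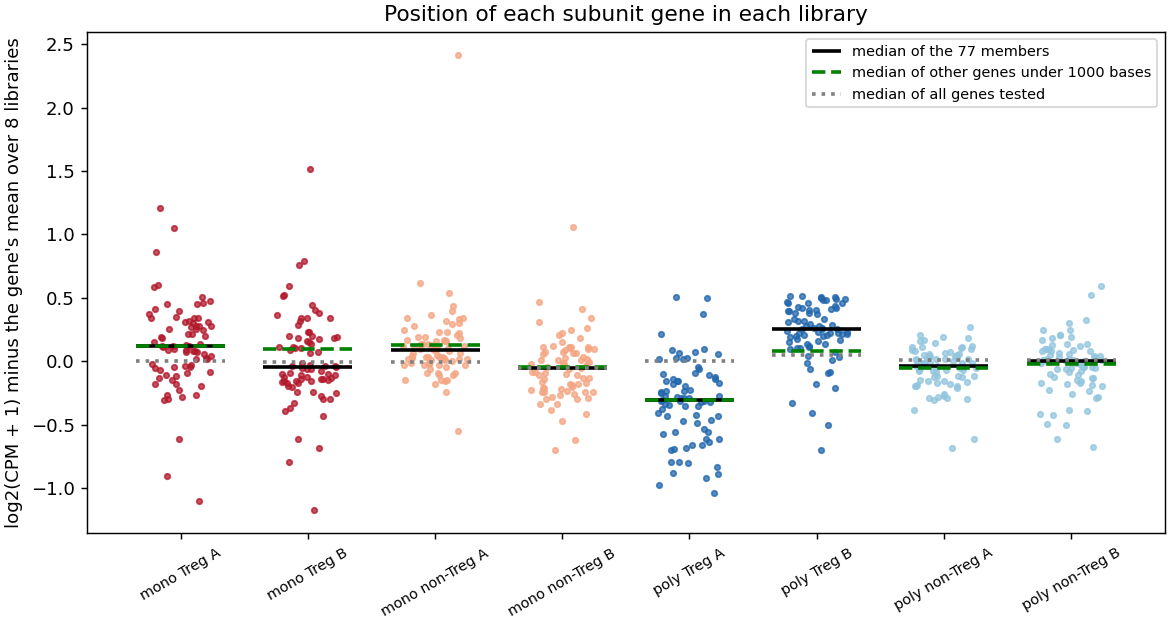
Deviation of each of the 77 members tested from its own mean over the 8 libraries, on the log2(CPM + 1) scale, by library, with the median of the members (black), of other genes under 1000 bases (green) and of all genes tested (grey). In polyclonal Treg A the members' median is -0.30, where the green line covers the black, and in polyclonal Treg B it is 0.25.

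Of the 77 members, 42 had their lowest value in polyclonal Treg library A and 32 their highest in library B. Member counts and medians are therefore given with and without each of these libraries for polyclonal Treg against polyclonal non-Treg and for monoclonal against polyclonal Treg cells. The main fit takes a single spread per gene from all 8 libraries. The gap between the polyclonal Treg libraries therefore also enters the standard errors of comparisons that do not use them. Results for single genes that rest on the polyclonal Treg group are not all given in this way. Libraries of the other groups lay closer together. Leaving out polyclonal Treg A, complex IV ran from 553 to 691 CPM where it fell to 396 in that library.

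Summed by complex, complex V had the highest level in every library and complexes II and III the lowest in all libraries except polyclonal Treg A, and these sums also reflect the number of genes. Complex I was at 1392 and 1308 CPM in monoclonal Treg cells, 1346 and 1186 in monoclonal non-Treg cells, 1053 and 1474 in polyclonal Treg cells and 1231 and 1256 in polyclonal non-Treg cells. Complex V was at 1610.5 and 1464, 1647 and 1447, 1336 and 2111, and 1549 and 1589.8 CPM in that order. In no complex were both Treg libraries above, or both below, both matching non-Treg libraries in both mouse types. In polyclonal mice the Treg libraries lay on either side of the non-Treg ones in every complex. In monoclonal mice both Treg libraries were above both non-Treg libraries in complexes II and III. Among single genes, 61% of all those tested did not overlap in this comparison. Complex II was at 483 and 452 CPM in monoclonal Treg and 444 and 392 in monoclonal non-Treg cells. Complex III was at 482 and 443 against 432 and 373. The share of complex I in the members' total stayed between 27.4% and 30.7%, and that of complex V between 34.3% and 39.2%, over the 8 libraries.

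**Figure D3:**
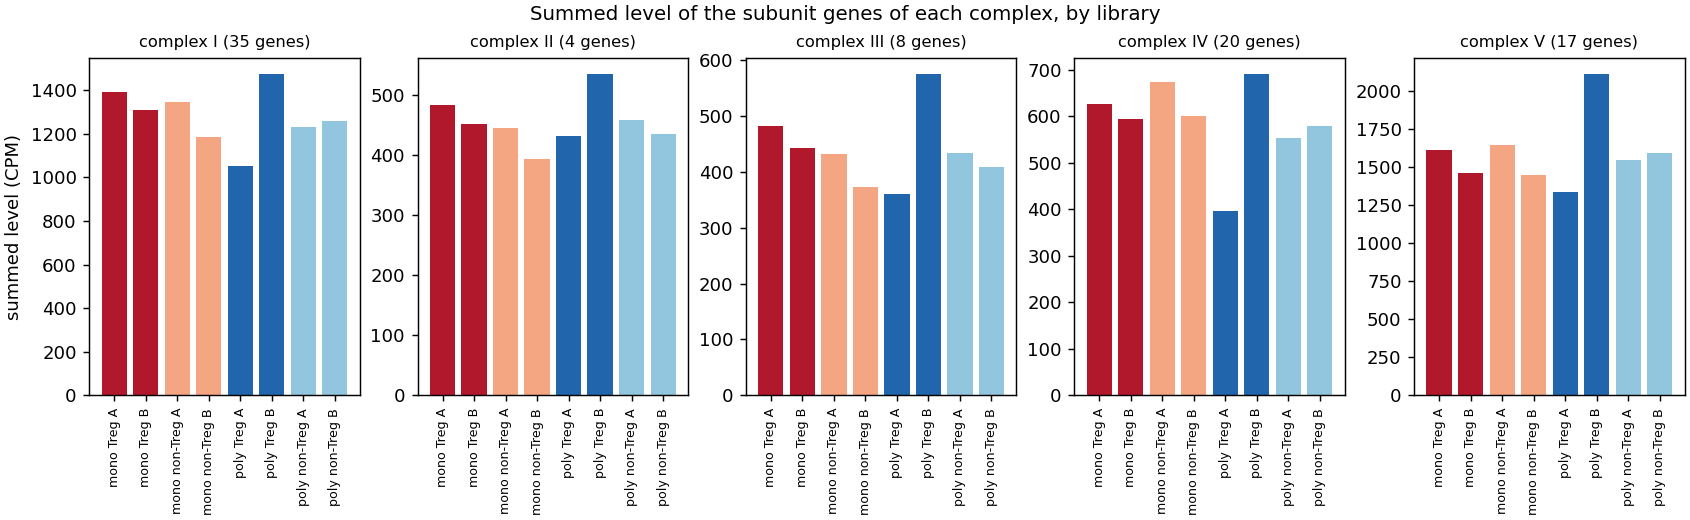
Summed level in CPM of the members of each complex (panels, each with its own vertical axis from 0) in each of the 8 libraries (bars). The bars of polyclonal Treg A and B are the lowest and highest of the 8 in complexes I, III, IV and V, with 1053 and 1474 CPM in complex I.

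In the monoclonal mice, few subunit genes differed between Treg and non-Treg cells. By limma with Benjamini-Hochberg adjustment over all genes, 3 of 77 members passed an adjusted p of 0.05, where 24.4% of all genes tested did. Cox7c was higher in Treg cells, and Cox6a2 and Ndufa3 were lower. The spread in this fit includes the polyclonal Treg libraries. A fit of the monoclonal libraries only called 5 members, 2 higher and 3 lower, where 23.3% of all genes passed. The median log2 difference of the members was 0.05, against -0.02 over all genes. At an unadjusted p under 0.05 there were 8 members, against 35.3% of all genes. The 2 libraries of each group did not overlap in 17 members in the higher direction and 9 in the lower, where 61% of all genes did not overlap.

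Ndufa3, a small accessory subunit in the membrane arm of complex I, was at 41.7 and 39.5 CPM in monoclonal Treg cells and 62.3 and 58.8 in monoclonal non-Treg cells. Both Treg libraries were below both non-Treg libraries. In the polyclonal mice it stood at 40.3 and 57.5 CPM in Treg and 48.5 and 48.5 in non-Treg cells, where the groups overlapped. The monoclonal difference was -0.56 ± 0.19 (SE), with a limma adjusted p of 0.0431, and the polyclonal difference was -0.01 ± 0.19. The difference between these was -0.55 ± 0.27 and did not pass the test (adjusted p of 0.230). The monoclonal call was lost in 9 of 19 alternative analyses, with adjusted p from 0.00101 to 0.198, and was lost when any 1 of the 4 monoclonal libraries was left out. The gene shared no 50-base word with another. It was among the highest per length, at 145 CPM per kilobase with the deposited length of 343 bases. Its GENCODE match has 515 bases, so this level is uncertain.

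Cox6a2, the isoform of a small regulatory complex IV subunit known from heart and skeletal muscle, was seen almost only in monoclonal non-Treg cells. It had 129 and 34 reads there, or 7.15 and 2.19 CPM. No read was found in monoclonal Treg or polyclonal non-Treg cells, and 0 and 3 reads were found in polyclonal Treg cells. Counting 0 as 3 reads in each library, the level in monoclonal non-Treg cells was at least 25.5-fold higher than in monoclonal Treg cells and at least 24.4-fold higher than in polyclonal non-Treg cells, bounds that fall to 11.97-fold and 11.4-fold without monoclonal non-Treg library A. The gene passed the filter on low values only through the group where it was high.

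On the log2(CPM + 1) scale, the Treg difference of Cox6a2 in monoclonal mice was -2.35 ± 0.50 (limma adjusted p of 0.00371). The dendritic cell gene Siglech, a marker of the plasmacytoid type, was also highest in monoclonal non-Treg cells, at 254 and 177 CPM. Siglech was at 68.1 and 20.9 in monoclonal Treg cells and 10.9 and 7.42 in polyclonal non-Treg cells, where Cox6a2 had no read. In polyclonal Treg cells, where Cox6a2 had 0 and 3 reads, Siglech was at 1.49 and 0.558. Class II antigen presentation genes summed to 19040.2 and 21320.4 CPM in monoclonal non-Treg cells and 6610.1 and 4941 in monoclonal Treg cells, against 83.2 to 241 in the polyclonal libraries. The part of such transcripts in the Cox6a2 values was not tested. The call was lost with DESeq2 (adjusted p of 0.174) and without monoclonal non-Treg library A (0.0718). Its counterpart Cox6a1, the isoform of most tissues, was at 62.9 and 72.6 CPM in monoclonal Treg cells, 70.5 and 61.2 in monoclonal non-Treg cells, 50.5 and 79.0 in polyclonal Treg cells and 64.4 and 62.0 in polyclonal non-Treg cells, and did not pass the test in any comparison.

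Cox7c, a small structural subunit of complex IV, was at 2.37 and 1.81 CPM in monoclonal Treg cells, 0.111 and 0 in monoclonal non-Treg cells, 0.710 and 0 in polyclonal Treg cells and 0.316 and 1.03 in polyclonal non-Treg cells. These values come from 36, 32, 2, 0, 10, 0, 5 and 16 reads, and the gene passed the filter through both monoclonal Treg libraries and polyclonal non-Treg B. The Treg difference in monoclonal mice was 1.54 ± 0.47 (limma adjusted p of 0.0280). It was lost with edgeR (0.136) and DESeq2 (0.0503) and without either monoclonal non-Treg library or monoclonal Treg A. Pseudogenes held 53.0% of its words, and their part in the count was not tested.

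The scaling between libraries matters for the direction in this comparison. When each library was scaled by its summed CD3 genes (Cd3d, Cd3e, Cd3g and Cd247) in place of all reads, the median of all genes shifted to -0.54 and that of the members to -0.47, and 22 members passed, 1 higher and 21 lower, where 37.6% of all genes passed. Relative to the shift of all genes, the members' median remained slightly higher.

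**Figure D4:**
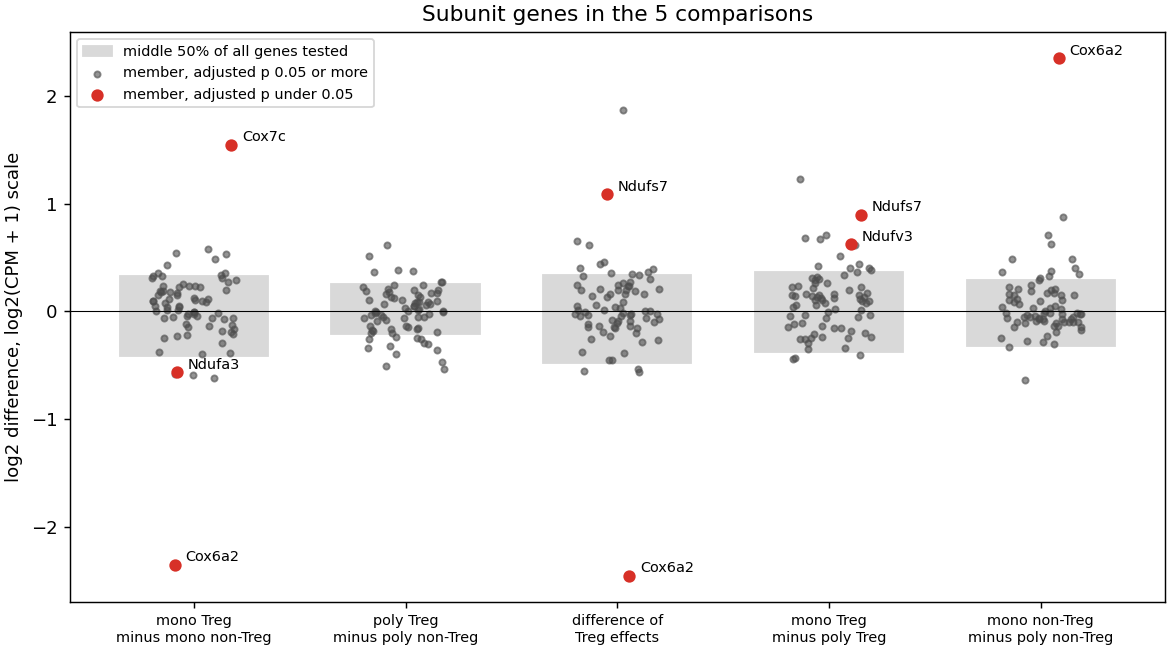
Log2 difference on the log2(CPM + 1) scale of each of the 77 members tested (points) in the 5 comparisons, with members past a limma adjusted p of 0.05 in red and the middle 50% of all genes tested as a grey box. Most points lie inside the boxes, and the named red points are the 5 genes that passed in 1 or more comparisons.

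In the polyclonal mice, no subunit gene passed the test between Treg and non-Treg cells. The limma count was 0 of 77, where 7.9% of all genes passed, with 2 members at an unadjusted p under 0.05 against 18.7% of all genes, and edgeR and DESeq2 on the reads recovered from CPM also called 0. The members' median difference was 0.00, equal to that of all genes at this precision. In 65 of the 77 the 95% interval of the difference lay within 2-fold in both directions, and in the other 12 it reached beyond. These intervals use the spread of all 4 groups. They may be too narrow here, since the members lay further apart between the polyclonal Treg libraries than between those of other groups. The result rests on both polyclonal Treg libraries. Without library A, 4 members were higher in Treg cells (9.56% of all genes passed) and the median was 0.30, and without library B, 8 were lower (8.44%) and the median was -0.23.

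The groups of the polyclonal comparison did not overlap in 5 members in each direction, where 47.3% of all genes did not. The 5 higher in Treg cells were Ndufa9, Ndufa11, Ndufb8, Ndufc2 and Atp5g2, and the 5 lower were Ndufs1, Ndufs7, Ndufv3, Cox5b and Cox6c. They were chosen for this text after their values were seen. In Cox6c, a small complex IV subunit, the level was 28.8 and 32.9 CPM in polyclonal Treg cells and 39.9 and 41.8 in polyclonal non-Treg cells. The same order was seen in monoclonal mice, at 29.0 and 31.4 in Treg and 35.9 and 43.7 in non-Treg cells, and the differences were -0.40 ± 0.20 (adjusted p of 0.31) and -0.38 ± 0.20 (0.18) by limma. Neither passed the test. A pseudogene held 21.15% of the 50-base words of Cox6c, and the part of pseudogene reads in its count was not tested.

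A difference between the mouse types was called in Ndufs7, which encodes an iron-sulfur subunit of complex I close to the site where ubiquinone is reduced. It was at 54.2 and 64.5 CPM in monoclonal Treg cells, 43.0 and 35.9 in monoclonal non-Treg cells, 26.0 and 37.5 in polyclonal Treg cells and 44.4 and 45.4 in polyclonal non-Treg cells. Treg libraries were above non-Treg libraries in monoclonal mice and below them in polyclonal mice, with no overlap in either. The Treg differences themselves were 0.58 ± 0.21 and -0.51 ± 0.21, and neither passed the limma test (adjusted p of 0.058 and 0.19). The test of the difference between them gave 1.09 ± 0.29 (adjusted p of 0.0334), where 9.2% of all genes passed. That call was lost in 10 of 18 alternatives, among them edgeR (0.0550), CD3 scaling (0.266, with a value of 0.51) and leaving out polyclonal Treg A (0.0651, with 0.83).

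Compared directly between the Treg groups, Ndufs7 was higher in monoclonal than in polyclonal Treg cells by 0.90 ± 0.21 (limma adjusted p of 0.00606). This difference passed in all 19 alternatives tried, with values from 0.64 to 1.16 and adjusted p from 0.000808 to 0.0470. In the non-Treg cells it was -0.19 ± 0.21 (adjusted p of 0.61). The transcript, on chromosome 10 of mm9 from 79712197 to 79719537, shared no 50-base word with another gene.

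**Figure D5:**
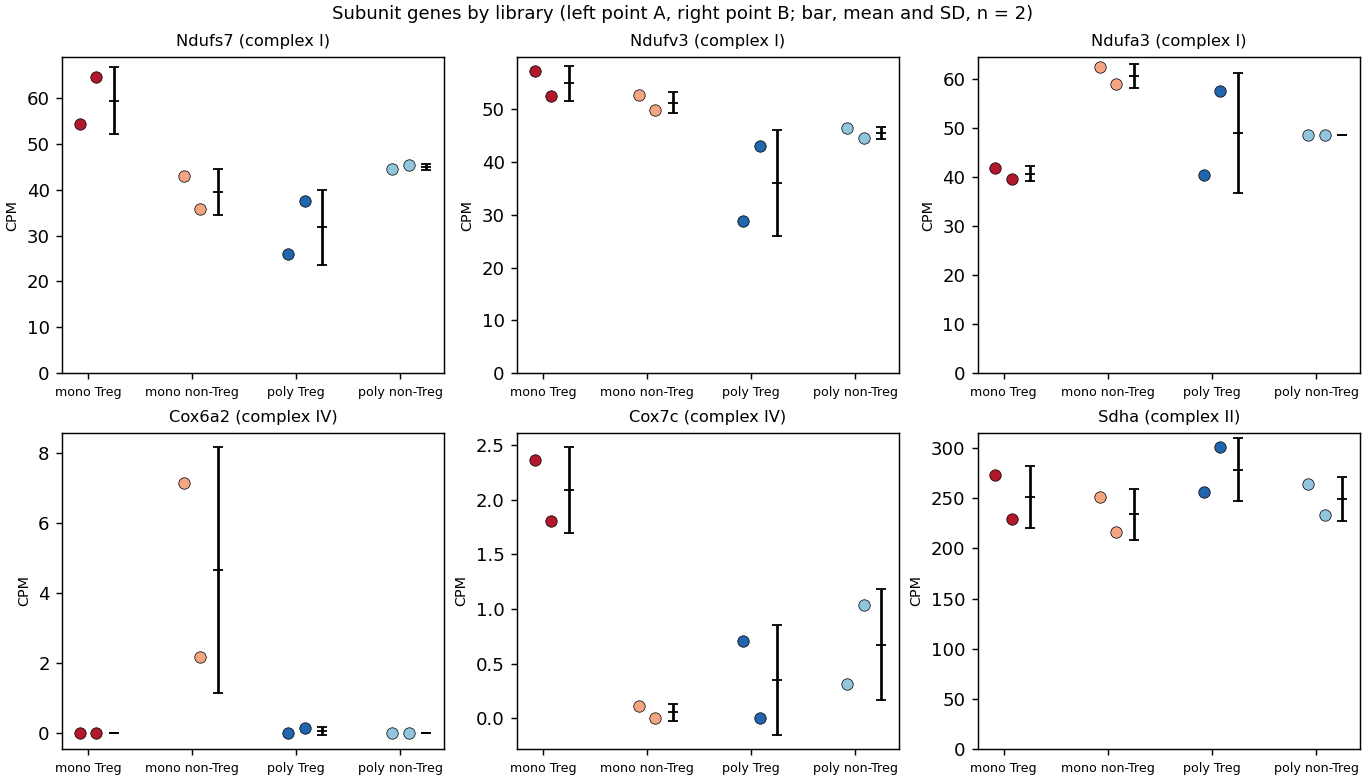
CPM in each library for Ndufs7, Ndufv3, Ndufa3, Cox6a2, Cox7c and Sdha, with library A to the left and B to the right in each group and a bar for the mean ± SD of 2 libraries. Ndufs7 is at 54.2 and 64.5 in monoclonal Treg cells against 26.0 and 37.5 in polyclonal Treg cells, and Cox6a2 is above 1 CPM only in monoclonal non-Treg cells.

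Between monoclonal and polyclonal Treg cells, 2 of 77 members passed the test, both higher in monoclonal cells and both in complex I, where 24.2% of all genes passed. The other was Ndufv3, a small subunit of the NADH-oxidising arm, at 57.2 and 52.5 CPM in monoclonal Treg cells and 28.8 and 43.0 in polyclonal Treg cells. Non-Treg values were 52.6 and 49.8 in monoclonal and 46.3 and 44.6 in polyclonal mice, so polyclonal Treg library A was the lowest of the 8. The difference was 0.62 ± 0.20 (limma adjusted p of 0.0356). The call was lost in 11 of 19 alternatives, and without polyclonal Treg A the difference was 0.34 (0.240). The neutrophil, dendritic and class II sums given above were also higher in monoclonal than in polyclonal Treg libraries. So was the sum of monocyte and macrophage genes, at 296 and 192 CPM against 31.8 and 34.9. The part of these transcripts in the Ndufs7, Ndufv3 and Cox7c values was not tested.

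Over all members the median of this comparison was 0.12, against -0.03 for all genes, and 7 members were higher and 3 lower without overlap, where 54.1% of all genes did not overlap. The choice of polyclonal library set both the number and the direction. Leaving out library A gave 1 member higher and 4 lower (18.8% of all genes passed) with a median of -0.19. Leaving out library B gave 19 higher and none lower (27.8%) with a median of 0.38.

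Between monoclonal and polyclonal non-Treg cells, 1 of 77 members passed, Cox6a2, where 19.4% of all genes passed. It passed the filter only through the monoclonal non-Treg group, so its call is a description and no independent support. Its difference was 2.35 ± 0.50 (limma adjusted p of 0.00360), and DESeq2 (0.212) or leaving out monoclonal non-Treg library A (0.0843) ended the call. This comparison shares the monoclonal non-Treg libraries with those above, so the Cox6a2 calls rest on the same 2 libraries. Dendritic and class II levels were also highest in that group. More members passed when only the non-Treg libraries were fitted, with the count given in the closing sections. The members' median was -0.01, against -0.07 for all genes, and 22 members were higher and 10 lower without overlap, where 66.5% of all genes did not overlap. With CD3 scaling 13 members passed, all higher, where 21.6% of all genes passed, and the medians were 0.48 for the members and 0.40 for all genes.

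In size, too, the members' differences were below those of the average gene. The median absolute log2 difference was 0.18 in the monoclonal and 0.15 in the polyclonal Treg comparison, 0.20 between Treg groups and 0.12 between non-Treg groups, against 0.37, 0.23, 0.37 and 0.31 over all genes. The median standard error was 0.25 for the members and 0.24 for all genes, and 0.22 for members against 0.18 for genes at the level used next. Among the 61 members whose log2 level averaged 4 or more, the 4 comparisons called 1, 0, 2 and 0, where 25.6%, 9.0%, 24.3% and 19.01% of the 8054 genes at that level were called. The 95% interval lay within 2-fold in both directions for 59, 65, 59 and 63 of the 77 members, so a change of that size was outside the interval for most members and not for all. These intervals use the spread of all 4 groups and may be too narrow for comparisons with the polyclonal Treg group.

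Within complex I, the core subunits Ndufs1 and Ndufv1 did not pass the test in any comparison, unlike Ndufs7 above. Ndufs1, the large iron-sulfur subunit, was at 109 and 105 CPM in monoclonal Treg cells, 94.7 and 97.7 in monoclonal non-Treg cells, 114 and 106 in polyclonal Treg cells and 115 and 117 in polyclonal non-Treg cells. Ndufv1, which binds NADH, was at 60.8 and 87.7, 67.9 and 67.2, 64.8 and 76.0, and 65.8 and 66.7 in that order. The largest difference of these genes in any comparison was -0.27 ± 0.13, for Ndufs1 between non-Treg groups, and none passed. Of the 34 complex I members tested, Ndufa3, Ndufs7 and Ndufv3 were those that passed in any comparison, and Ndufs5 was too low to be tested.

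Complex II joins the chain to the citric acid cycle by oxidising succinate, and none of its 4 members passed in any comparison. Sdha, the flavoprotein that binds succinate, was at 273 and 229 CPM in monoclonal Treg cells, 252 and 216 in monoclonal non-Treg cells, 256 and 301 in polyclonal Treg cells and 265 and 234 in polyclonal non-Treg cells. Sdhb, the iron-sulfur subunit, was at 95.7 and 107, 79.4 and 80.1, 79.0 and 94.4, and 83.2 and 88.1. All groups of Sdha overlapped, while Sdhb was higher in both monoclonal Treg libraries than in the monoclonal non-Treg ones, by 0.34 ± 0.15 (limma adjusted p of 0.11). The membrane anchors were lower per length. Sdhc was at 42.5 and 59.6, 53.8 and 44.1, 44.4 and 73.5, and 54.0 and 53.6 CPM. Sdhd was at 71.6 and 56.4, 59.2 and 52.0, 51.7 and 65.5, and 56.5 and 59.6 CPM. Per kilobase the means were 89.1 CPM for Sdha, 83.1 for Sdhb, 46.2 for Sdhd and 45.4 for Sdhc. The deposited length of Sdhc is 1171 bases, against 3171 in its GENCODE match, so its level per length is uncertain.

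Complex III hands electrons from ubiquinol to cytochrome c, and none of its 8 members passed. Uqcrc1, a core subunit, was at 150.5 and 144 CPM in monoclonal Treg cells, 116 and 102 in monoclonal non-Treg cells, 101 and 178 in polyclonal Treg cells and 122 and 107 in polyclonal non-Treg cells. Monoclonal Treg libraries were above the monoclonal non-Treg ones, and the polyclonal Treg libraries lay on either side of their non-Treg counterparts. The monoclonal difference was 0.43 ± 0.20 (limma adjusted p of 0.15). Uqcrfs1, the Rieske iron-sulfur protein, was at 45.5 and 50.6, 51.1 and 49.9, 46.3 and 69.4, and 56.5 and 52.3 CPM, with overlap between the Treg and non-Treg groups in polyclonal mice and in monoclonal mice.

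Complex IV, cytochrome c oxidase, passes the electrons to oxygen and is the complex with most isoform pairs. The isoforms of most tissues held most of the reads. Cox4i1 was at 131 and 106 CPM in monoclonal Treg cells, 155 and 127 in monoclonal non-Treg cells, 60.03 and 150.5 in polyclonal Treg cells and 112 and 105 in polyclonal non-Treg cells. Cox4i2, the lung isoform, was at 0 in 7 libraries and at 0.323 CPM in polyclonal non-Treg B. Cox7b2, Cox8b, Cox8c and Ndufa4l2 had no read in any library, which allows up to 0.152 to 0.213 CPM depending on the library, since a count of 0 allows up to 3 reads; these limits cover counting error only.

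Other pairs kept the same order. Cox6b1 was at 89.2 and 63.1 CPM in monoclonal Treg cells, 59.6 and 44.6 in monoclonal non-Treg cells, 47.1 and 69.7 in polyclonal Treg cells and 50.8 and 54.3 in polyclonal non-Treg cells. Its testis isoform Cox6b2 was at 2.76 and 3.16, 2.44 and 3.22, 0.995 and 2.08, and 1.52 and 1.16 CPM. Per kilobase these are means of 119.8 and 4.72 CPM. Cox6b2 had reads in all 8 libraries and shared no 50-base word with another gene, and its values in polyclonal non-Treg cells were below both monoclonal groups (0.71 ± 0.42 between non-Treg groups, limma adjusted p of 0.29).

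Cox7a2 was at 40.9 and 52.3 CPM in monoclonal Treg cells, 40.3 and 37.9 in monoclonal non-Treg cells, 33.2 and 42.6 in polyclonal Treg cells and 35.2 and 34.8 in polyclonal non-Treg cells. Its heart and muscle isoform Cox7a1 was at 0 and 0, 0.499 and 0.709, 1.56 and 0.456, and 0 and 0 CPM, too low to be tested. Reads of Cox7a1 were thus found in the monoclonal non-Treg and polyclonal Treg libraries. Cox7a2l, the supercomplex factor, was at 57.5 and 52.3, 90.6 and 78.8, 35.2 and 80.5, and 49.9 and 71.9 CPM. Its monoclonal libraries did not overlap, with a Treg difference of -0.62 ± 0.29 that did not pass (limma adjusted p of 0.14). A pseudogene held 17.69% of the 50-base words of Cox7a2l.

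The remaining complex IV members of this kind were close between groups. Cox7b was at 44.9 and 66.2 CPM in monoclonal Treg cells, 46.7 and 45.5 in monoclonal non-Treg cells, 31.0 and 56.6 in polyclonal Treg cells and 45.7 and 40.1 in polyclonal non-Treg cells. Cox8a was at 43.4 and 40.04, 43.8 and 39.1, 22.6 and 42.9, and 36.0 and 35.6 CPM. Ndufa4 was at 54.4 and 42.9, 51.7 and 48.6, 29.8 and 56.9, and 48.2 and 54.0 CPM. In each of these 3 genes polyclonal Treg library A held the lowest of the 8 values.

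Complex V held the members highest per length. Atp5b, the catalytic beta subunit, averaged 253 CPM per kilobase, Atp5a1, the alpha subunit, 205, and Cox4i1 of complex IV followed at 161. Atp5b was at 474 and 416 CPM in monoclonal Treg cells, 463 and 440.1 in monoclonal non-Treg cells, 400.1 and 657 in polyclonal Treg cells and 464 and 469.8 in polyclonal non-Treg cells. Atp5a1 was at 469 and 458, 501 and 434, 451 and 677, and 478 and 499 CPM. The Treg differences of Atp5b were -0.02 ± 0.18 and 0.13 ± 0.18, and no complex V member passed in any comparison. The members lowest per length among those tested were Atp5g1 (1.04), Cox7c (1.79) and Cox6a2 (1.82), the first and second with many shared words.

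Genes that build or feed the chain were counted in lists chosen with earlier results of these data known. Their counts are to be read against the 24.4% of all genes that passed in the monoclonal and the 7.9% that passed in the polyclonal Treg comparison. Of 40 assembly factors, 1 rose and 1 fell in monoclonal Treg cells against non-Treg cells (median 0.06). Cox17, a copper chaperone of complex IV, was at 57.3 and 36.5 CPM in monoclonal Treg cells and 26.3 and 18.6 in monoclonal non-Treg cells (1.02 ± 0.26, limma adjusted p of 0.0111), and at 19.2 and 21.1 in polyclonal Treg cells and 20.3 and 24.2 in polyclonal non-Treg cells. It was also higher in monoclonal than in polyclonal Treg cells (1.15 ± 0.26, adjusted p of 0.00545), where 2 assembly factors rose and 1 fell, against 24.2% of all genes. The neutrophil sums given above also were highest in 1 monoclonal Treg library, and dendritic and class II sums were higher in monoclonal than in polyclonal Treg cells. The part of these transcripts in the Cox17 values was not tested. Cox10, an enzyme of the haem pathway of complex IV, fell by 0.72 ± 0.24 in monoclonal Treg cells (0.0410). In polyclonal mice 1 rose, Sdhaf1, an assembly factor of complex II, at 30.3 and 44.8 CPM in Treg and 19.05 and 18.98 in non-Treg cells (0.92 ± 0.24, 0.0311). None of 18 genes for cytochrome c, coenzyme Q synthesis and carriers passed in either Treg comparison.

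Of 20 genes of the citric acid cycle and pyruvate dehydrogenase, 1 rose and 3 fell in monoclonal Treg cells, a share near that of all genes, and none passed in polyclonal mice. Mdh2, mitochondrial malate dehydrogenase, was at 271 and 261 CPM in monoclonal Treg cells, 654 and 831 in monoclonal non-Treg cells, 132 and 217 in polyclonal Treg cells and 159 and 160.3 in polyclonal non-Treg cells. The monoclonal non-Treg libraries were the highest by far, the group with the highest dendritic sums given above, whose part was not tested. The monoclonal Treg difference was -1.47 ± 0.19 (limma adjusted p of 7.05e-05), the difference of the Treg effects was -1.55 ± 0.26 (0.00252), and non-Treg cells differed between mice by 2.20 ± 0.19 (7.07e-07). Idh2 fell by 1.42 ± 0.25 (0.00102) and Idh3a rose by 0.76 ± 0.20 (0.0116) in monoclonal Treg cells, both isocitrate dehydrogenases.

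Of 17 fatty acid oxidation genes, 3 rose and 1 fell in monoclonal Treg cells, a share close to the 24.4% of all genes, and none passed in polyclonal mice. Eci1, an enoyl-CoA isomerase, was at 36.6 and 35.01 CPM in monoclonal Treg cells and 16.4 and 15.2 in monoclonal non-Treg cells (1.14 ± 0.25, limma adjusted p of 0.00386). Acads and Hadh, enzymes of short-chain oxidation, rose by 1.09 ± 0.22 (0.00228) and 0.86 ± 0.23 (0.0144), while Acadm, the medium-chain dehydrogenase, fell by 0.64 ± 0.22 (0.0461).

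Among 16 tested regulators of mitochondrial biogenesis, 1 rose and 2 fell in monoclonal Treg cells, and 1 rose in polyclonal Treg cells. Myc was at 65.7 and 56.6 CPM in monoclonal Treg cells, 94.2 and 82.9 in monoclonal non-Treg cells, 166 and 196 in polyclonal Treg cells and 110.1 and 119.7 in polyclonal non-Treg cells. It fell by 0.53 ± 0.15 in monoclonal Treg cells (limma adjusted p of 0.0186) and rose by 0.65 ± 0.15 in polyclonal ones (0.0135), with a difference of -1.18 ± 0.21 (0.00331). Pprc1, a coactivator related to PGC-1, fell by 0.67 ± 0.14 in monoclonal Treg cells (0.00357). Tfam, the packaging factor of mitochondrial DNA, was lower in non-Treg cells of monoclonal than of polyclonal mice, with a difference of -0.58 ± 0.16 (0.0178) that was lost in 5 of 19 alternatives and was -0.085 with CD3 scaling (0.819). Of 76 mitochondrial ribosomal proteins, 1 rose and 2 fell in monoclonal Treg cells and none passed in polyclonal mice. Of 80 cytosolic ribosomal proteins, many of which also have pseudogene copies, 21 fell and none rose in monoclonal Treg cells. Their median was -0.58, against -0.02 over all genes. The 24.4% of all genes that passed went both ways, with 1747 lower and 1396 higher of the 12881 tested. The dendritic and class II sums given above also were lower in monoclonal Treg cells, and their part was not tested. None of the 80 passed in polyclonal mice, with a median of -0.18.

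Promoters were available for 69 of the 84 members as RefSeq sequence of GRCm38.p6, from 250 bases before to 50 after the gene start. NRF1, nuclear respiratory factor 1, is known to bind the promoters of many subunit genes. The core of its motif, CGCATGCG, reads the same on both strands and was found in 8 of the 69, or 11.6%, against 517 of 27025 promoters of all genes, or 1.91%. Those 27025 include promoters of genes too low to be tested here, and no share was taken over tested genes alone. The windows are shown because they hold the exact matches, with the motif in capitals, read on the strand of the gene.
Atp5g2: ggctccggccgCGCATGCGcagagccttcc
Atp5k: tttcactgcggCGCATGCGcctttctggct
Atp5l: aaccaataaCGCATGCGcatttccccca
Cox6a1: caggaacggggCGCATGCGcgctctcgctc
Ndufa8: gtcgctggagaCGCATGCGcagatggtacc
Ndufa11: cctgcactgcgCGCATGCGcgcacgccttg
Uqcr11: gatcgccttcaCGCATGCGctatacgtctg
Uqcrc1: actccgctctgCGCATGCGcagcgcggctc

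On the minus strand these windows lie at chr15:102671070-102671099 for Atp5g2, chr5:108434430-108434459 for Atp5k, chr9:44920965-44920992 for Atp5l, chr5:115349101-115349130 for Cox6a1, chr2:36049329-36049358 for Ndufa8 and chr10:80406808-80406837 for Uqcr11. On the plus strand they lie at chr17:56717692-56717721 for Ndufa11 and chr9:108936668-108936697 for Uqcrc1. An ETS family motif, CCGGAAGT searched on both strands, was in 5 of the 69, against 4.0% of all promoters. The 8 genes with the NRF1 match did not pass the test in any comparison, and a match describes the letters only.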

How the data were processed

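RNA was measured in 8 libraries, 2 in each of 4 groups, as polyadenylated RNA sequenced in single-end reads of 50 bases, per the labels' protocols. The authors deposited 1 table of CPM values for 24016 genes, each column summing to 1000000 (a check on the file), with a RefSeq transcript, its mm9 position and its length per gene, per the file headers. Without giving roles, the submitters' processing notes list STAR 2.4.1a, HOMER 4.7, edgeR, Trimmomatic 0.33, CASAVA 1.8.2, FastQC 0.10.1 and mm9. The sources used here do not give the treatment of reads with several matches.

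Every CPM value was a whole number of reads within 0.01 read, so reads and totals (14076330 to 19722321) were recovered. Groups were compared by limma (version 3.58.1, R 4.3.3), applied to log2(CPM + 1) with its trend and robust settings over all 8 libraries, for the 12881 genes that reached 1 CPM in 2 or more of them. It was 2-sided, with Benjamini-Hochberg adjustment over all of them and a threshold of 0.05, and the spread had 4 residual degrees of freedom. Differences on this scale understate the change of low genes. An exact permutation test of 2 against 2 libraries cannot go below a p of 0.333 and was not used. Alternatives were other pseudocounts and filters, edgeR 4.0.16 and DESeq2 1.42.0 on recovered reads, TMM and CD3 scaling, fits of the compared libraries only, a replicate block and leaving out each library. Scaling to the median member was added after seeing the data.

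The members and gene lists were chosen with earlier results of these data known. Values by library are given for complex II, isoform pairs, core enzymes, members past the threshold (up to 5 in each direction per comparison) and the 3 highest and lowest per length, and up to 4 genes per list are named where they passed. The values of 1 core enzyme are not reported here. Shared words and coding positions come from GENCODE vM21 (GRCm38), matched by RefSeq accession for all 84 members, and no mm9 sequence was used. The transcript of Ndufa11 in that set is 545 bases, against a deposited length of 2655. Other members also differed, among them Sdhc (3171 against 1171), Uqcrq (1521 against 495), Ndufb4 (971 against 449) and Ndufa3 (515 against 343). Levels per kilobase use the deposited length and are uncertain for such members.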

Additional observations from a re-analysis of the deposited data

Results flagged for a closer look

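For Cox6a2, limma's test of the difference between the Treg effects in the 2 mouse types gave -2.45 ± 0.71 on the log2(CPM + 1) scale (adjusted p of 0.0455). The gene passed the filter on low values only through monoclonal non-Treg cells, the group where it was high, so the test gives no independent support. It rests on 129 and 34 reads in monoclonal non-Treg cells and on 3 reads in the other 6 libraries, and the call was lost in 14 of 17 alternatives (adjusted p from 0.0187 to 0.322).

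For Ndufs7 the same test gave 1.09 ± 0.29 (adjusted p of 0.0334), with Treg libraries above non-Treg libraries in monoclonal mice and below them in polyclonal mice. The call was lost in 10 of 18 alternatives (adjusted p from 0.00597 to 0.266), while the direction was kept in all 18.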

How the results depend on the processing

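No named gene that passed the test changed direction under any alternative that gave a value. Counts of members past the threshold changed as follows from the reported 3, 0, 2, 2 and 1 (Treg against non-Treg in monoclonal and polyclonal mice, the difference of these, monoclonal against polyclonal Treg, and the same in non-Treg). With a minimum of 5 CPM they were 1 for monoclonal Treg, 1 for the difference and 0 for non-Treg. DESeq2 gave 1, 1 and 0 for these, and edgeR 0 for the difference. CD3 scaling gave 22 for monoclonal Treg, 1 between Treg groups and 13 between non-Treg groups. Fits of the compared libraries only gave 5, 1 and 5 for these. The difference had 1 with a pseudocount of 0.25 CPM, 1 with 4 CPM, 0 without a filter and 0 with scaling to the median member, which gave 1 between Treg groups. Without a filter, non-Treg groups had 2. Leaving out each library gave ranges of 1 to 7, 0 to 8, 0 to 5, 1 to 19 and 0 to 2.

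The members' median moved to -0.47 with CD3 scaling in the monoclonal comparison, to -0.56 in the difference (all genes -0.58) and to 0.48 between non-Treg groups, where edgeR gave 0.082 and DESeq2 0.076. Leaving out each library gave medians from -0.01 to 0.14, -0.23 to 0.30, -0.22 to 0.32, -0.19 to 0.38 and -0.060 to 0.12. The cause of these changes was not tested, beyond fewer genes with the stricter filter and fewer libraries in the reduced fits.

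Of the named genes outside the members, Idh2, Mdh2 and the difference in Myc passed under every alternative given a value. Of 19 alternatives, the call was lost in 10 for Cox10, 9 for Acadm, 8 for Sdhaf1, 6 for Myc in polyclonal and 4 in monoclonal Treg cells, 5 for Tfam, 4 for Hadh (0.30 with CD3 scaling, adjusted p of 0.331), 3 for Idh3a (0.19, 0.481), 3 for Cox17 in monoclonal Treg cells and 1 between Treg groups, and 2 each for Pprc1, Eci1 and Acads.

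The letters A and B are not said by the labels to pair the libraries, and over all genes correlations of the A and B deviations between groups were -0.09 to 0.10, although neutrophil genes were higher in A in all 4 groups. With the letter as a replicate block, members called were 2, 0, 1, 2 and 1. Depth limits members under about 0.2 CPM, where 3 reads are the floor.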
